A study of Mus musculus with 4 samples.

Results

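The genes described here are those of the NRF2 pathway and of glutathione synthesis in mouse liver, compared between wild-type (WT) animals and animals in which Fto was knocked out (KO). They are 10 named genes out of the 37315 gene identifiers counted: Nfe2l2, Keap1, Nqo1, Gclc, Gclm, Txnrd1, Srxn1, Hmox1, Ephx1 and Ugdh. Each symbol matched 1 identifier, and all 10 had enough reads to be tested. They were taken by symbol, with earlier results of these data known. Polyadenylated RNA from the livers of C57BL/6 mice aged 23 weeks was sequenced, with 2 libraries for each genotype. Not given in the sources used here are the knockout allele, whether Fto was removed from the whole animal or from the liver alone, the sex of the mice, and whether each library stands for its own mouse. The p-values below weigh the difference between genotypes against the spread of libraries within a genotype, estimated with help from all genes. That spread may therefore be technical only.

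NRF2, the protein of Nfe2l2, is a transcription factor that switches on genes against oxidants and reactive chemicals. In unstressed cells the adaptor KEAP1 holds it and hands it to a ubiquitin ligase built on CUL3, so that it is degraded; oxidants and electrophiles modify cysteines of KEAP1, and NRF2 then accumulates, pairs with a small MAF protein and binds antioxidant response elements. Because this control acts on the protein, the level of Nfe2l2 transcript is not a measure of NRF2 activity. Among its best known targets are the subunits of glutamate-cysteine ligase, which carries out the rate-limiting step of glutathione synthesis, and the liver is a main producer of glutathione in the body.

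None of the 10 genes was called different between the genotypes, where called means an adjusted p under 0.05 with edgeR's quasi-likelihood test over all genes; in that test 1.91% of the 13836 tested genes were called, 0.947% lower and 0.961% higher in KO. At an unadjusted p under 0.05 there were 4 of the 10, namely Nqo1, Gclc, Nfe2l2 and Ephx1, each with a negative log2 fold change (KO over WT), against 13.0% of all tested genes in either direction and 6.48% with a negative value. DESeq2 called 2 of the 10, Nqo1 and Gclc (3.72% of genes called), and limma-voom called 0 (1.86% of genes called). Both KO libraries were below both WT libraries for 6 of the 10 genes and above them for 1. Over all tested genes the libraries of the genotypes did not overlap for 42.0%, with 20.4% lower and 21.6% higher in KO. The median log2 fold change was -0.36 over the 10 genes and 0.01 over all tested genes.

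The libraries held between 39549592 and 44689114 counts. The targeted gene, Fto, gave 1749 and 1292 reads in the WT libraries against 607 and 486 in those of KO, where it was called lower (log2 fold change -1.57, standard error (SE) 0.195, edgeR adjusted p = 0.0109). The 7 hepatocyte markers found by symbol, among them Alb and Ttr, summed to between 77212 and 89851 CPM (reads per 1000000 of the scaled library size), and none was called. All 14 Kupffer cell markers were higher in both KO libraries, with summed levels of 172 and 258 CPM in WT and 371 and 398 CPM in KO, and none was at 0 reads; 2 were called. All 6 tested markers of red cell precursors were lower in both KO libraries, and 1 was called. Summed levels were 274 and 309.9 CPM in WT and 187 and 207 CPM in KO. Most of each sum was Alas2, at 157 and 184 CPM in WT and 122 and 135 CPM in KO (log2 fold change -0.40, edgeR adjusted p = 0.398). The other tested markers had log2 fold changes from -2.22 (Klf1, the one called) to -0.71 (Hba-a1). The libraries numbered 2 stood apart in fat cell transcripts: Adipoq had 70 reads in WT replicate 2 and 71 in KO replicate 2 against 1 and 0 in the replicates numbered 1, and Lep had 41 and 36 against 0 and 0. The 6 fat cell markers summed to 30.6 and 68.5 CPM in WT and 6.29 and 19.9 CPM in KO, most of it from Cidec, which hepatocytes can also express and which was lower in both KO libraries (log2 fold change -2.15, adjusted p = 0.0711). No tested marker of fat cells, endothelial, stellate or bile duct cells, lymphocytes, or neutrophils and monocytes was called. Some markers of these lists had too few reads to test. Of 5 tested neutrophil and monocyte markers, 4 were higher in both KO libraries and 1 was lower in both (median log2 fold change 0.88). Their list was low, with summed levels of 1.82 and 2.02 CPM in WT and 4.04 and 2.80 CPM in KO. In RNA from whole tissue, fewer cells of a type and less RNA per cell cannot be told apart.

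The element to which NRF2 and MAF bind is shown here where its core was present near the start of a gene, so that the genes can be compared with their values below. RefSeq (GRCm38.p6) gave 300-base windows, from 250 bases before to 50 after a start, for 8 of the 10 genes; Gclc and Hmox1 had no entry. The core was searched as TGACNNNGC on both strands, which reads GCNNNGTCA on the opposite strand. It was present in 5 of the 10 windows of these 8 genes, and in 12.4% of all 32851 windows in the table. Txnrd1 has 3 windows and the match was in 1 of them. Each line gives the strand of the gene, 5′ to 3′, with the core in capitals; the Nfe2l2 stretch lies on the minus strand at chr2:75704885-75704913, that of Gclm on the plus strand at chr3:122245413-122245441, that of Txnrd1 on the plus strand at chr10:82859104-82859132, that of Srxn1 on the plus strand at chr2:152105542-152105570, and those of Ugdh on the minus strand at chr5:65435956-65435984 and chr5:65435918-65435946.
Nfe2l2: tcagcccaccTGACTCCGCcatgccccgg
Gclm: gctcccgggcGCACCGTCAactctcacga
Txnrd1: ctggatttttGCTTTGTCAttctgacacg
Srxn1: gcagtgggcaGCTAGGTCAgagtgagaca
Ugdh, first match: gcggagcccgTGACTTAGCtggagctgat
Ugdh, second match: tcctcaagggGCGTGGTCAtacagttcgg
The matches began 240 bases before the start in Nfe2l2, 134 before it in Gclm, 92 before it in Txnrd1, 132 and 94 before it in Ugdh, and at base 29 of the transcript in Srxn1. None overlapped the AP-1 element TGANTCA. The windows of Keap1, Nqo1 and Ephx1 did not hold these letters, which says nothing of elements farther away. A match is a description of the sequence. The 5 genes that hold it did not share a direction in KO liver: Nfe2l2, Srxn1 and Ugdh had negative log2 fold changes and Txnrd1 and Gclm positive ones, none of them called.

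Levels were first set in order within WT liver, per kilobase of annotated exon so that genes of different length can be compared. Ephx1 stood highest, at 285 ± 7.03 CPM per kilobase (mean ± SD, n = 2 libraries), and Gclc next, at 122 ± 10.5. Gclm (33.8 ± 2.42), Ugdh (31.6 ± 1.23) and Nfe2l2 (25.3 ± 2.28) lay in the middle, followed by Srxn1 (18.6 ± 1.76), Txnrd1 (18.4 ± 0.540) and Keap1 (13.97 ± 1.17). Hmox1 (8.27 ± 1.01) and Nqo1 (5.36 ± 1.68) were lowest. Of neighbours in this order, Gclm and Ugdh overlapped in WT but not in KO. Srxn1 and Txnrd1 overlapped in WT, while in KO both Txnrd1 libraries (mean 21.7) were above both Srxn1 libraries (mean 13.9). The middle of the order depends on the length used: per kilobase of the longest transcript, Txnrd1 was at 36.0, Nfe2l2 at 38.8 and Gclm at 38.1 in WT, with Ephx1 and Gclc still highest and Nqo1 lowest.

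**Figure D1:**
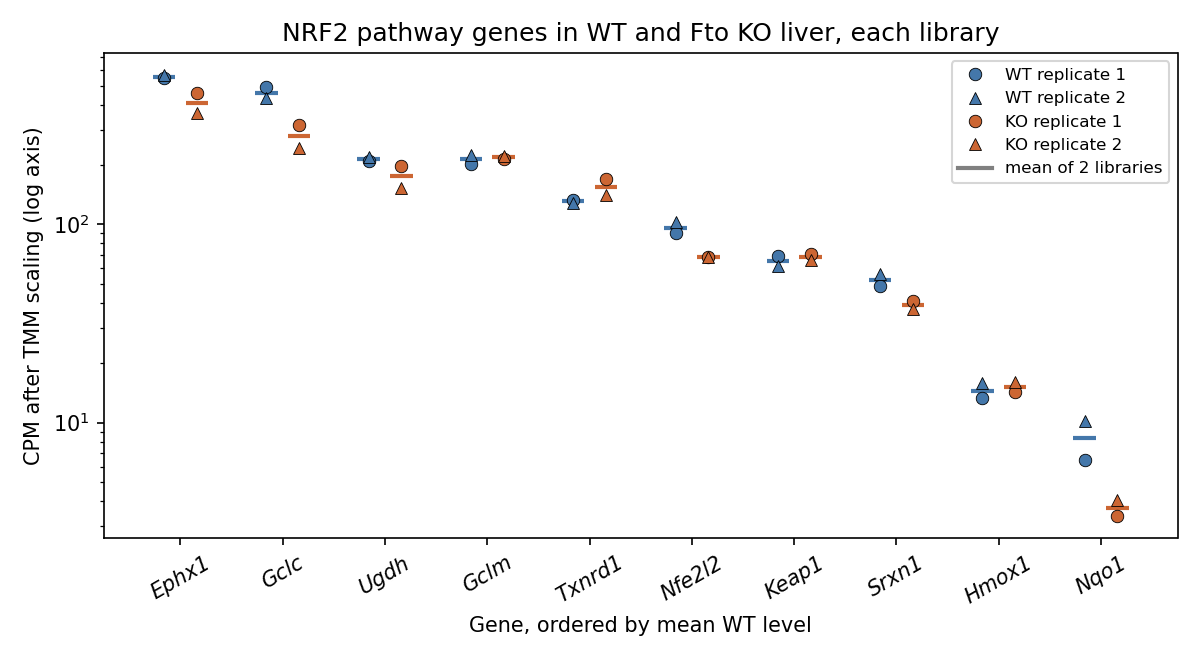
Level of each of the 10 genes in CPM after TMM scaling, on a log axis, in every library (circles replicate 1, triangles replicate 2, blue WT, orange KO), with the mean of the 2 libraries of a genotype as a bar. Both KO libraries lie below both WT libraries for Ephx1, Gclc, Ugdh, Nfe2l2, Srxn1 and Nqo1, and above them for Txnrd1.

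The regulators come first. Nfe2l2 (ENSMUSG00000015839, chromosome 2, 75675513 to 75704641, minus strand, GRCm38, the assembly called mm10), was at 89.9 and 102 CPM in WT replicates 1 and 2 and at 68.5 and 68.0 CPM in KO replicates 1 and 2. Both KO libraries were below both WT libraries, and the KO libraries were almost equal. The log2 fold change was -0.49 (SE 0.175, 95% interval -0.90 to -0.09, edgeR adjusted p = 0.277), which is 71.1% of the WT level. Keap1 (ENSMUSG00000003308, chromosome 9, 21229730 to 21239361, minus strand), the inhibitor, was at 69.4 and 61.7 CPM in WT and 70.4 and 65.8 CPM in KO. Its groups overlapped, and the log2 fold change of 0.06 had a 95% interval from -0.35 to 0.47 (adjusted p = 0.953). The annotation places an antisense gene, Gm16754, over 510 exonic bases of Keap1, and with a kit that keeps no strand, the reads of the pair cannot be told apart there.

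The other genes of NRF2 control held no call. Of 11 tested genes of this list, none was called by edgeR with all libraries, the filter on low counts and genotype as the only term. In that fit 1 had an unadjusted p under 0.05, against 13.0% of all tested genes, and the median log2 fold change was -0.06. Cul3, the ligase scaffold, had 0.01, and Sqstm1, the autophagy receptor that binds KEAP1, had -0.02; both were picked after their values were seen. Maff, a small MAF partner, had the smallest p, with 6.23 and 6.12 CPM in WT and 10.2 and 7.67 CPM in KO (log2 fold change 0.53, SE 0.227, adjusted p = 0.374). Bach1, a repressor that competes for the same elements, had 0.34, and its paralog Bach2 had -0.57; the sign of each changed when 1 library was left out, KO replicate 1 for Bach1 (-0.03) and WT replicate 1 for Bach2 (0.02). Without WT replicate 2, Bach2 had -1.0 and was called (adjusted p = 0.0344).

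The subunits of glutamate-cysteine ligase gave different values. Gclc (ENSMUSG00000032350, chromosome 9, 77754535 to 77794485, plus strand) encodes the catalytic subunit. It was at 489 and 433 CPM in WT and 316 and 243 CPM in KO, so both KO libraries were well below both WT libraries. The WT mean was 461 ± 39.6 CPM and the KO mean 279 ± 51.5 CPM (SD, 2 libraries each), and the log2 fold change was -0.72 (SE 0.195, 95% interval -1.18 to -0.27, edgeR adjusted p = 0.141). The plain log2 ratio was -0.63 for replicate 1 of the genotypes and -0.83 for replicate 2. The adjusted p was 0.0373 with DESeq2 and 0.0185 in edgeR with no filter on low counts. It was 0.131 with limma-voom and 0.22 in edgeR with library size alone. A block for replicate number gave 3.57e-06, in a fit where 19.7% of all genes were called. When 1 library was left out, the log2 fold change ran from -0.92 to -0.56.

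Gclm (ENSMUSG00000028124, chromosome 3, 122245557 to 122270732, plus strand) encodes the modifier subunit, which raises the affinity of the enzyme for glutamate and eases its inhibition by glutathione. It was at 202 and 224 CPM in WT and 214 and 221 CPM in KO. The KO libraries lay between the WT libraries, and the log2 fold change was 0.03 (SE 0.169, 95% interval -0.36 to 0.43, adjusted p = 0.975). Gm17494, antisense to it, overlaps 296 of its exon bases, and the pseudogene Gm6061 overlaps 244. Gm17494 had between 3 and 13 reads a library and Gm6061 between 0 and 4, while Gclm had at least 8516. How reads in shared bases were counted was not given, so the effect of these overlaps on Gclm cannot be told.

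Within a library, the ratio of the subunits needs no scaling between libraries. There were 2.42 and 1.94 Gclc reads per Gclm read in WT and 1.47 and 1.10 in KO, not corrected for length. Every KO ratio was below every WT ratio, a mean of 2.18 ± 0.342 against 1.29 ± 0.266 (SD, n = 2 each). The two-sided exact permutation test over 4 libraries gave p = 0.333, the smallest that this design allows.

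**Figure D2:**
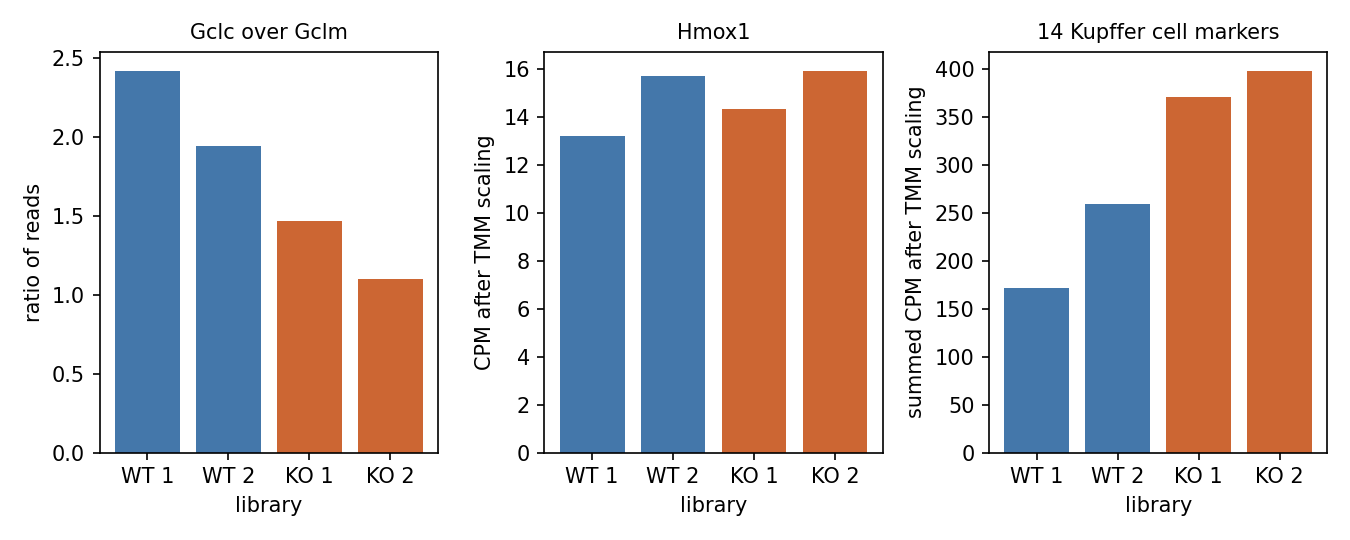
Bars give each library's value: left, Gclc reads per Gclm read; middle, Hmox1 in CPM after TMM scaling; right, the summed CPM of 14 Kupffer cell markers. The Gclc to Gclm ratio is 1.94 or more in WT and 1.47 or less in KO, Hmox1 overlaps between the genotypes, and the Kupffer cell markers are higher in both KO libraries.

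Around this step, no gene of glutathione synthesis and turnover was called by edgeR with all libraries, the filter on low counts and genotype as the only term. Of 16 tested genes, 3 had an unadjusted p under 0.05, against 13.0% of all tested genes, and the median log2 fold change was -0.14. Gss, the synthetase that adds glycine, had -0.21 (adjusted p = 0.747), and Gsr, which reduces oxidised glutathione, had -0.19 (adjusted p = 0.750); both were picked after their values were seen. Cdo1, the dioxygenase that oxidises cysteine and so competes for the same amino acid, had the smallest p, with 1368 and 1586 CPM in WT and 843 and 1016 CPM in KO (log2 fold change -0.67, SE 0.187, adjusted p = 0.155). Chac1, an enzyme that degrades glutathione, had 1.06 and 2.21 CPM in WT and 3.07 and 4.57 CPM in KO (log2 fold change 1.23, SE 0.396, adjusted p = 0.223). Both KO libraries were below both WT libraries for Cdo1 and above them for Chac1. With a block for replicate number, edgeR called both (adjusted p = 7.02e-06 for Cdo1 and 0.000993 for Chac1, 19.7% of all genes called). The value of Chac1 ran from 0.79 without WT replicate 1 to 1.84 without WT replicate 2. edgeR called it when WT replicate 2 was left out (adjusted p = 0.00196), when KO replicate 1 was left out (0.00953) and, together with Cdo1, with no filter on low counts (0.00682 for Chac1 and 0.0381 for Cdo1). The cystine transporter gene Slc7a11, a target of NRF2 in many cells, had between 2 and 7 reads a library and was too low to test; it too was picked after its values were seen.

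Nqo1 had the largest negative value of the 10 genes and also the lowest level. Nqo1 (ENSMUSG00000003849, chromosome 8, 107388225 to 107403206, minus strand) encodes a quinone reductase and is often used as a readout of NRF2. It lies on the chromosome of Fto, 15.7 Mb away. Its reads numbered 275 and 387 in WT against 156 and 163 in KO, or 6.48 and 10.2 CPM against 3.37 and 4.07 CPM. Both KO libraries were below both WT libraries, although the WT libraries differed from each other by more than the KO libraries did. The log2 fold change was -1.16 (SE 0.282, 95% interval -1.81 to -0.51, edgeR adjusted p = 0.101), which is 44.7% of the WT level. DESeq2 called it (adjusted p = 0.0171), as did edgeR without the filter on low counts (0.000912, 3.70% of genes called), without WT replicate 1 (0.000339, 4.42% called) and without KO replicate 2 (0.0145, 3.56% called). The log2 fold change was -0.81 without WT replicate 2. Its paralog Nqo2 was at 107 and 109 CPM in WT and 76.5 and 80.2 CPM in KO (log2 fold change -0.46, SE 0.168, adjusted p = 0.293).

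The thiol enzymes among the 10 genes differed in sign. Txnrd1 (ENSMUSG00000020250, chromosome 10, 82833951 to 82897712, plus strand), the cytosolic thioredoxin reductase, was at 133 and 128 CPM in WT and 168 and 139.6 CPM in KO. It was the only one of the 10 with both KO libraries above both WT libraries, and its log2 fold change was 0.24 (SE 0.179, 95% interval -0.18 to 0.65, adjusted p = 0.670). Srxn1 (ENSMUSG00000032802, chromosome 2, 152105516 to 152111376, plus strand), the sulfiredoxin that restores over-oxidised peroxiredoxins, was at 49.0 and 56.0 CPM in WT and 41.1 and 37.3 CPM in KO. Both KO libraries were below the WT libraries (log2 fold change -0.42, SE 0.181, adjusted p = 0.384). Txnrd2, the mitochondrial reductase, had -0.37, and Txnrd3 had -0.43, neither called (adjusted p = 0.493 and 0.433).

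No gene of the wider thiol systems was called by edgeR with all libraries, the filter on low counts and genotype as the only term. Of 15 tested genes of thioredoxins, peroxiredoxins and methionine sulfoxide reductases, 2 had an unadjusted p under 0.05, against 13.0% of all tested genes. These 2 were the reductases Msrb2 (log2 fold change -0.67) and Msra (-0.53), and the median of the 15 was -0.21. Of 11 glutathione peroxidases, glutaredoxins and glyoxalases, 0 had an unadjusted p under 0.05 and the median was -0.22, with Glrx5, a glutaredoxin of iron-sulfur cluster assembly, at -0.49 and Gpx4, the lipid peroxide reductase, at -0.46. Of 7 enzymes against superoxide and peroxide, 0 had an unadjusted p under 0.05 and all 7 values were negative, with a median of -0.21; catalase (Cat) had -0.27 and Sod1 -0.21.

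Hmox1 (ENSMUSG00000005413, chromosome 8, 75093621 to 75100589, plus strand), 16.2 Mb from Fto, encodes heme oxygenase, which opens the heme ring to give biliverdin, iron and carbon monoxide. It is a target of NRF2 and of BACH1, and in liver it is abundant in Kupffer cells, which take up old red cells. It was at 13.2 and 15.7 CPM in WT and 14.3 and 15.9 CPM in KO. The groups overlapped, and the log2 fold change was 0.06 (SE 0.194, 95% interval -0.39 to 0.51, unadjusted p = 0.753). The Kupffer cell markers given above were higher in both KO libraries and the red cell precursor markers lower; their part in the Hmox1 value was not tested. Its paralog Hmox2 was at 32.0 and 32.1 CPM in WT and 31.9 and 34.1 CPM in KO (log2 fold change 0.04).

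Of 15 tested genes of heme synthesis and breakdown, 1 was called, against 1.91% of all tested genes, and the median log2 fold change was -0.11. Flvcr1, which encodes a heme exporter of the cell surface, rose 3.02-fold, from 1.44 and 1.63 CPM in WT to 4.61 and 4.67 CPM in KO (log2 fold change 1.60, SE 0.258, adjusted p = 0.0259). It was called under all 10 alternatives, with log2 fold changes between 1.51 and 1.68. The red cell precursor markers were lower in KO and the Kupffer cell markers higher, and their part in it was not tested. The biliverdin reductases Blvra and Blvrb had log2 fold changes of -0.16 and -0.39, neither called. Cpox, an enzyme of heme synthesis, had -0.41 (adjusted p = 0.344).

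The conjugation and detoxification genes Ephx1 and Ugdh had the next values. Ephx1 (ENSMUSG00000038776, chromosome 1, 180976210 to 181020904, minus strand), the microsomal epoxide hydrolase, was at 546 and 565 CPM in WT and 459.9 and 362 CPM in KO. Both KO libraries were below the WT libraries, KO replicate 2 the farther (log2 fold change -0.43, SE 0.186, adjusted p = 0.379). Ephx2, the soluble epoxide hydrolase, had -0.28 and Lta4h, a related hydrolase of leukotriene synthesis, -0.20; neither was called. Ugdh (ENSMUSG00000029201, chromosome 5, 65413221 to 65435949, minus strand) makes UDP-glucuronic acid, the sugar donor of glucuronidation. It was at 208 and 219 CPM in WT and 196 and 152 CPM in KO. KO replicate 1 was close to the WT libraries and KO replicate 2 was not, and the log2 fold change was -0.29 (SE 0.191, 95% interval -0.74 to 0.15, adjusted p = 0.603).

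**Figure D3:**
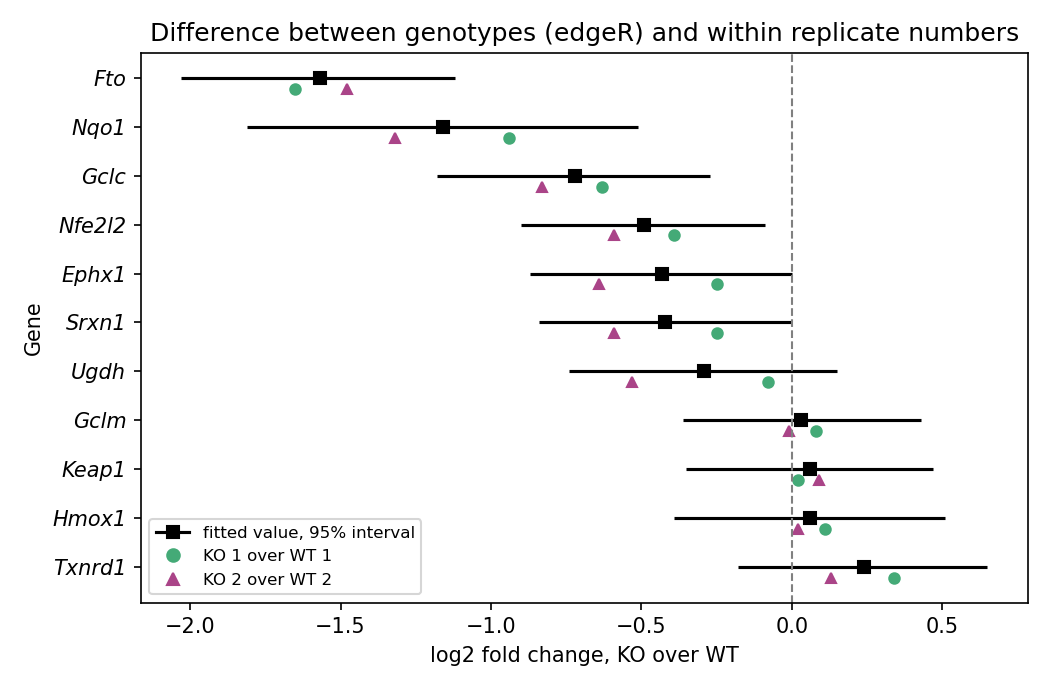
Squares give the fitted log2 fold change, KO over WT, of Fto and the 10 genes with 95% intervals; circles and triangles give the plain log2 ratio within the libraries numbered 1 and within those numbered 2. Nqo1, Gclc, Nfe2l2, Ephx1, Srxn1 and Ugdh are negative within both numbers, while Gclm, Keap1 and Hmox1 lie near 0.

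The genes of the glucuronic acid pathway around Ugdh, not all of which use its product, were examined next. Of 14 tested genes of the glucuronic acid pathway, 13 had a negative log2 fold change, and the median was -0.18. In this list 1 gene was called, against 1.91% of all tested genes. Ugt1a5, a glucuronosyltransferase, fell from 48.9 and 54.0 CPM in WT to 12.6 and 18.8 CPM in KO (log2 fold change -1.71, SE 0.234, adjusted p = 0.0146), and was called under all 10 alternatives. The genes of the Ugt1a locus share their last exons and differ in the first, so their counts depend on how shared reads were treated. Ugt1a1, Ugt1a6a and Ugt1a9 of the same locus had -0.18, -0.17 and -0.07, none called. Dcxr, a xylulose reductase, had -0.41 (adjusted p = 0.368).

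Other genes that NRF2 is known to drive made the longest list. Of 31 tested, 4 were called, 3 lower and 1 higher in KO, where 1.91% of all tested genes were called (edgeR adjusted p); 27 had a negative log2 fold change, and the median was -0.33. Me1, the malic enzyme that makes NADPH, fell from 338 and 449 CPM in WT to 159 and 134 CPM in KO (log2 fold change -1.43, SE 0.209, adjusted p = 0.0179). Gsta2, an alpha-class glutathione transferase, fell from 37.9 and 53.0 to 20.6 and 20.1 CPM (log2 fold change -1.16, SE 0.215, adjusted p = 0.0431). Its near-identical paralog Gsta1 had 14.6 and 26.7 CPM in WT and 6.49 and 7.70 CPM in KO. Gsta1 just missed the threshold (log2 fold change -1.54, SE 0.300, adjusted p = 0.0515). Its adjusted p was 9.23e-05 with DESeq2, 0.0457 in edgeR with DESeq2 size factors and 7.67e-09 in edgeR with no filter on low counts. It was 0.068 with limma-voom and 0.0859 in edgeR with library size alone. The log2 fold change of Gsta1 ran from -1.91 to -1.05 when 1 library was left out. Reads of the pair may be divided between them or dropped. Aldh3a2, a fatty aldehyde dehydrogenase, fell from 735 and 851 to 405 and 431 CPM (log2 fold change -0.92, SE 0.174, adjusted p = 0.0462).

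Osgin1, a growth inhibitor induced by oxidative stress, went the other way. It rose 2.11-fold, from 79.8 and 75.4 CPM in WT to 178 and 149 CPM in KO (log2 fold change 1.08, SE 0.181, adjusted p = 0.0312). With library size alone in place of TMM scaling, the calls of Osgin1 and Gsta2 were lost (adjusted p = 0.0579 and 0.0677), while their log2 fold changes were 1.10 and -1.13. The call of Aldh3a2 was lost without WT replicate 2 (0.0857) and without KO replicate 1 (0.0997).

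Some of the 10 genes, Ephx1 and Ugdh among them, also respond to drug-sensing nuclear receptors, and Nqo1 to the aryl hydrocarbon receptor, so targets of those receptors were set beside them. Of 12 tested genes of the receptors CAR and PXR, 1 was called, against 1.91% of all tested genes. Among the 12, 11 had a negative log2 fold change, and the median was -0.43. Cyp2b10, the classic CAR target, gave 96 and 136 reads in WT, against 16 and 6 in KO (log2 fold change -3.51, SE 0.474, adjusted p = 0.0143). Its log2 fold change ran from -4.25 to -3.07 when 1 library was left out. Cyp3a25 had -0.59 (adjusted p = 0.153). Cyp3a11 of the same list had -0.01, and Por, the only positive value of the 12, had 0.28. Neither was called, and both were picked after their values were seen. The receptor genes themselves, Nr1i3 for CAR and Nr1i2 for PXR, had -0.32 and -0.53, neither called; both were picked after their values were seen. Of 7 tested genes of the aryl hydrocarbon receptor, none was called by edgeR with all libraries, the filter and genotype as the only term. In that fit 0 had an unadjusted p under 0.05, against 13.0% of all tested genes, and the median was -0.08. Cyp1a2 had 0.51 and Cyp1b1 -0.78, the latter with at most 20 reads a library.

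**Figure D4:**
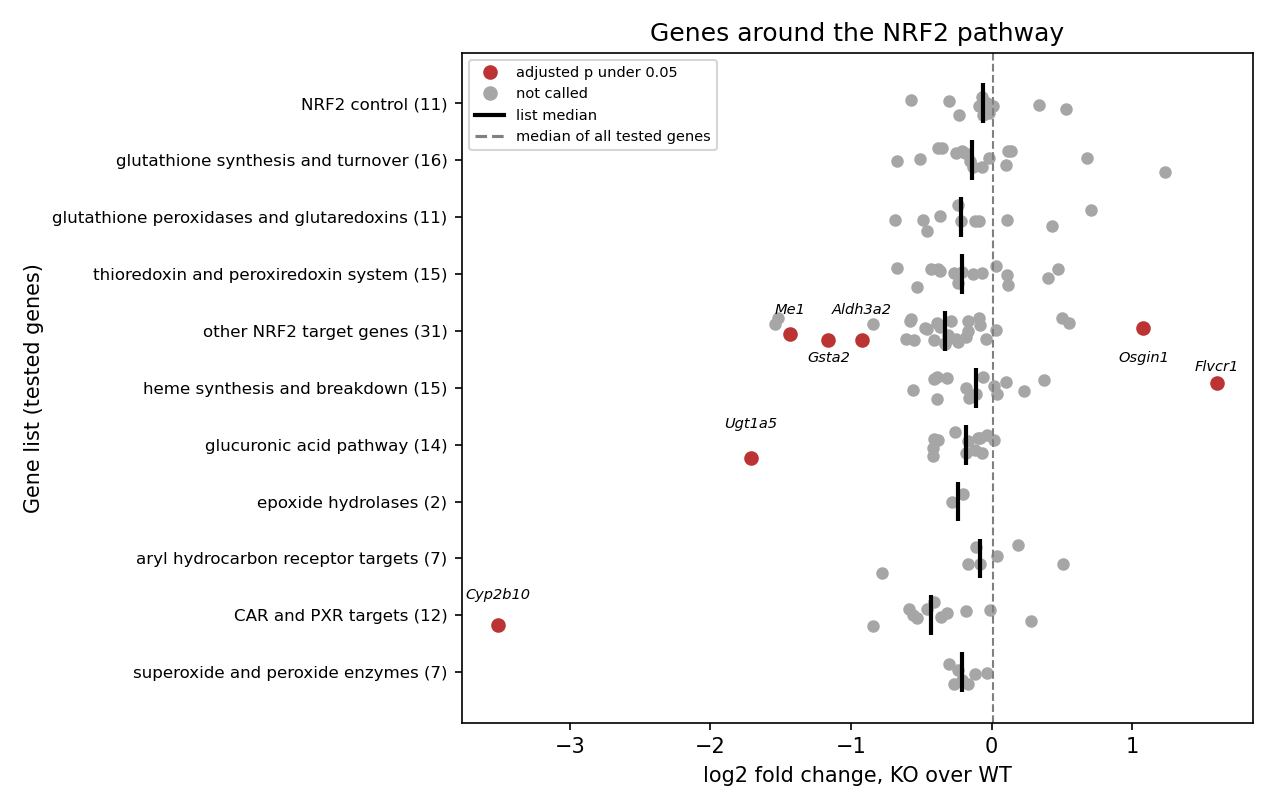
Each point is a tested gene of a list around the NRF2 pathway, with its log2 fold change, KO over WT, on the horizontal axis (red, adjusted p under 0.05; grey, not called; vertical position within a list is random). Black bars are list medians, from -0.43 to -0.06, and the dashed line is the median of all tested genes, 0.01; the 7 called genes are named.

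Counted once each, the lists held 132 tested genes, of which 5 were called lower and 2 higher in KO (1.91% of all tested genes were called), and 101 had a negative and 31 a positive log2 fold change, with a median of -0.19. Over all tested genes 6809 were negative and 7027 positive. The lists were described by these counts and not tested as sets.

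The libraries numbered 1 and 2 also differed among the 10 genes. Nqo1 had the highest replicate 2 over replicate 1 ratio in both genotypes, 0.65 on the log2 scale in WT and 0.27 in KO. The fat cell transcripts Adipoq and Lep were higher in the same libraries, and their part in the Nqo1 values was not tested. The KO over WT log2 ratio of Nqo1 was -0.94 for replicate 1 and -1.32 for replicate 2. In KO the lowest ratios were those of Gclc (-0.38), Ugdh (-0.37) and Ephx1 (-0.35), while in WT these 3 had -0.18, 0.08 and 0.05. All 6 genes with both KO libraries below the WT libraries had a more negative KO over WT ratio for replicate 2 than for replicate 1, as with Srxn1 (-0.59 against -0.25) and Ugdh (-0.53 against -0.08). The share of all tested genes with this order was not counted, so it is not given as a trait of these 6. With 1 library of each genotype under a number, these ratios have no test.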

How the data were processed

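The data are RNA-seq of polyadenylated liver RNA, 2 WT and 2 KO libraries made with TruSeq v2, a kit that does not mark the strand, and read as 101-base pairs, per the labels' protocols. The authors deposited whole-number read counts per Ensembl gene, made with TopHat2 2.1.1 on mm10 and HTSeq 0.6.0, per the submitters' processing notes; which annotation release and which counting options they used was not given in the sources used here. GENCODE M21, on the same assembly, gave symbols, positions and lengths for 35533 of the 37315 identifiers.

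From the counts, genes were filtered with filterByExpr (minimum count 10, minimum total 15), scaled with TMM and tested with edgeR 4.0.16 in R 4.3.3 (robust quasi-likelihood F test, two-sided, genotype as the only term), with Benjamini-Hochberg adjustment over 13836 genes. SE is the absolute log2 fold change over the square root of F. DESeq2 1.42.0 and limma 3.58.1 (voom) were alternatives, beside other scalings, no filter, a block for replicate number and leaving out each library. The procedure was tested on simulated counts. Libraries held 39549592 to 44689114 counts, so depth limits only genes of few reads; with 2 libraries a genotype, the spread is estimated with help from all genes.

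The 10 genes, the 11 pathway lists and the 9 marker lists were chosen with earlier results of these data known. Named from each pathway list were its called genes, the 2 with the smallest p and genes completing a pair; others are said to be picked after their values were seen. One listed marker is not reported here and is left out of the sums.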

Additional observations from a re-analysis of the deposited data

How the results depend on the processing

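Of 13836 tested genes 264 were called. DESeq2 called 559, edgeR with no filter on low counts 829, and leaving out 1 library gave between 460 and 633. Of the 10 genes of the NRF2 pathway, 0 were called; it was 2 with no filter and 2 with DESeq2 (Nqo1 and Gclc in both), and between 0 and 1 when a library was left out (Nqo1, without WT replicate 1 or without KO replicate 2). Of the other pathway genes 7 were called, 11 with no filter and between 9 and 10 when a library was left out. Fto kept its call under all 10 alternatives, with log2 fold changes from -1.72 to -1.43. Of 100 values of the 10 genes under the alternatives, 84 kept their direction and side of the threshold, 12 passed the threshold and 4 changed sign. The sign changes came from leaving out a library: the log2 fold change ran from -0.04 to 0.14 for Keap1, from -0.04 to 0.10 for Gclm and from -0.06 to 0.19 for Hmox1. In the same way it ran from -1.0 to 0.02 for Bach2, from -0.01 to 0.09 for Hmox2, from -0.33 to 0.01 for Blvra, from -0.03 to 0.64 for Bach1 and from -0.28 to 0.17 for Ugt1a9. The causes were not tested.

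A replicate block gave 2729 called genes (19.7%), 6 of the 10 genes (Nqo1, Gclc, Nfe2l2, Srxn1, Ephx1 and Ugdh, all lower in KO) and 53 of the other pathway genes. Equal numbers went together across genes (r = 0.43 for deviations from the group mean), but with 2 pairs and no label that says so, they were not taken to pair animals.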
